A study of Mus musculus with 4 samples.

Results

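The genes described here are those of the NF-kB subunits RelA (Rela), c-Rel (Rel), RelB (Relb) and p100/p52 (Nfkb2) and of the NF-kB binding protein Bcl-3 (Bcl3). They were followed through every probe set whose single platform gene symbol is one of these names, which gave 6 of the 45101 probe sets on the array and 5 of 18194 genes with such a probe set. Nfkb2 has 2 probe sets and each other gene has 1. RNA of mouse back skin had been measured on 4 arrays, 2 from K5-IKKbeta transgenic mice and 2 from wild type mice. The transgenic mice carry the gene of IKKbeta under regulatory elements of keratin K5, a keratin of basal keratinocytes of the epidermis and of the outer cell layer of hair follicles. Both groups were males of 32 days from C57BL6 X DBA2 stock, and each array held RNA pooled from 3 mice of its genotype. The spread between arrays is therefore a spread between pools, and nothing in the labels says whether the pools were processed on separate days. The RNA came from whole skin, so that a difference in the number of cells of a type and a difference in RNA per cell cannot be told apart.

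NF-kB proteins are dimers that wait in the cytoplasm until a signal releases them into the nucleus. In the canonical pathway IKKbeta phosphorylates the inhibitor IkB alpha, whose destruction frees dimers of RelA or c-Rel with p50. In the non-canonical pathway the kinases NIK and IKKalpha trigger the processing of p100 to p52, and the RelB-p52 dimer enters the nucleus. The genes Relb, Nfkb2 and Bcl3 are known targets of canonical NF-kB. Bcl-3 resembles the IkB inhibitors but acts in the nucleus, where it binds homodimers of p50 or p52 and can make them activators. The gene of p50 itself was not analysed here.

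As a description across probe sets, the K5-IKKbeta arrays correlated with each other at 0.994, the wild type arrays at 0.996, and arrays of different genotype at 0.965 to 0.969 (Pearson). Values are RMA expression on the log2 scale, and differences are K5-IKKbeta minus wild type. A difference was called when limma's p-value, adjusted by Benjamini and Hochberg over all 45101 probe sets, lay below 0.05. Ikbkb, which the transgene carries, had 3 of its 5 probe sets called higher in K5-IKKbeta skin. The clearest was 1454184_a_at, which read 8.77 and 8.74 in the K5-IKKbeta arrays, against 6.50 and 6.54 in the wild type arrays (log2 fold change 2.24, limma adjusted p = 1.01e-04). Where each of these probe sets lies relative to the transgene's sequence is not given in the sources used here.

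K5-IKKbeta skin held more RNA of Relb, by 6.63-fold, of Bcl3, by 3.12-fold, and of Rela, by 1.40-fold, while Rel did not pass the test. The Rela call held in 7 alternatives and was lost in 7, among them another quantile normalization (limma adjusted p = 0.0666). Nfkb2 was higher by 3.32-fold with probe set 1425902_a_at, but its other, almost equally bright probe set 1429128_x_at was 1.35-fold higher and not called. The mean of both gave Nfkb2 a log2 fold change of 1.08 (limma adjusted p = 0.0036 over genes). Of the 6 probe sets 4 were called higher and 0 lower, also at limma's unadjusted p under 0.05; among all probe sets 10.4% were called higher and 5.88% lower. The arrays of the groups did not overlap, with K5-IKKbeta higher, for 4 of the 6 probe sets, against 30.3% of all probe sets. The median log2 fold change was 1.07 over the 6 probe sets and 0.00 over all probe sets. In the fit of 1 probe set per gene, 4 of the 5 genes were called higher, against 23.4% of the 13074 genes tested.

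**Figure D1:**
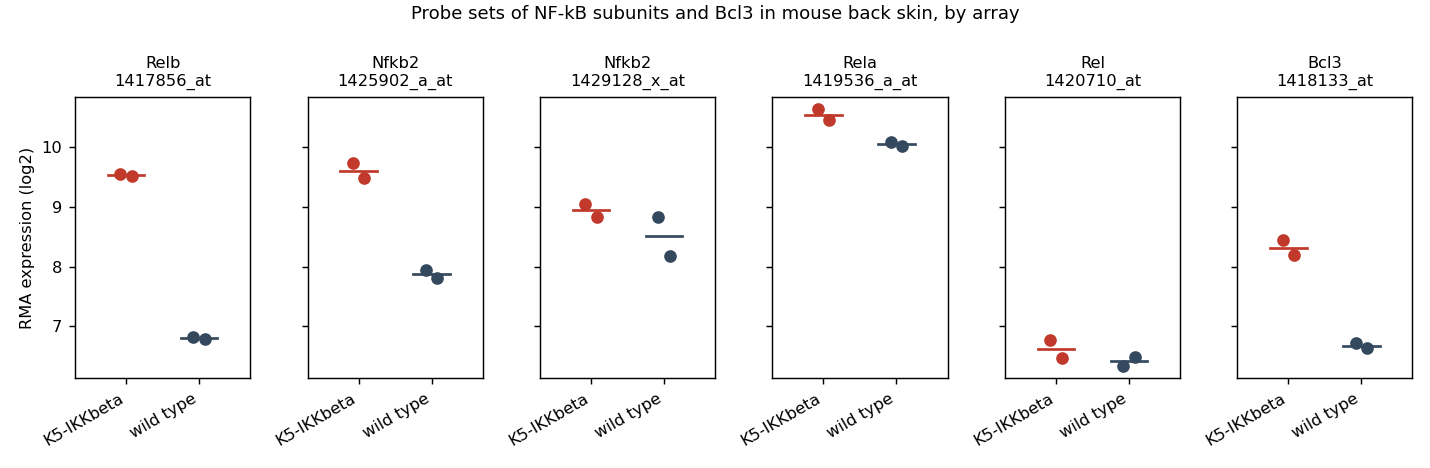
RMA expression (log2, vertical axis) of the 6 probe sets in each array; points are arrays, short lines are group means (n = 2 arrays each, K5-IKKbeta left and wild type right in each panel). The K5-IKKbeta arrays lie above the wild type arrays for Relb, Nfkb2 1425902_a_at, Rela and Bcl3, and the arrays overlap for Nfkb2 1429128_x_at and Rel; heights of different probe sets are not comparable.

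Relb encodes a subunit that pairs with p52 or p50 and that does not form a DNA-binding homodimer of its own. Its probe set 1417856_at read 9.55 and 9.51 in the K5-IKKbeta arrays, against 6.82 and 6.79 in the wild type arrays. The pools of a genotype lay within 0.04 of each other, and the lowest K5-IKKbeta array was 2.69 above the highest wild type array. In wild type arrays 1 and 2 the probe set was dim, with 48.4% and 48.0% of probe sets below it. The size of the rise therefore rests on a dim wild type level. The group means were 9.53 ± 0.03 in K5-IKKbeta skin and 6.81 ± 0.02 in wild type skin (SD, n = 2 each). The log2 fold change was 2.73 ± 0.11 (SE), with a 95% interval of 2.48 to 2.98 (limma adjusted p = 4.52e-05). On the linear scale this interval spans 5.56-fold to 7.90-fold. Only 0.124% of all probe sets, and 0.275% of tested genes, had a higher log2 fold change, which placed Relb at rank 37 of 13074 genes. Leaving out any 1 array kept the call, with log2 fold changes of 2.71 to 2.75 and adjusted p of at most 0.0029.

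**Figure D2:**
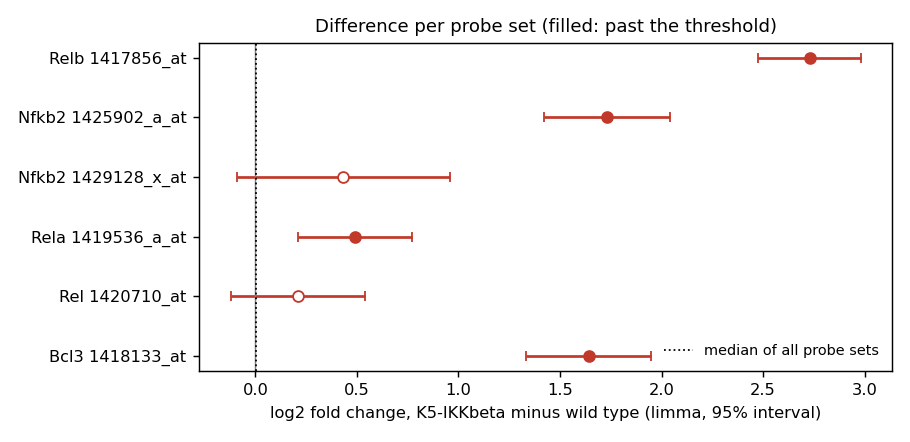
Log2 fold change of each probe set, K5-IKKbeta minus wild type, with limma's 95% interval (horizontal axis, n = 2 arrays per group); filled points passed the threshold of 0.05. Relb stands at 2.73, Nfkb2 1425902_a_at at 1.73 and Bcl3 at 1.64, Rela at 0.49, and the intervals of Rel and of Nfkb2 1429128_x_at include 0.

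Nfkb2 encodes p100, which holds RelB in the cytoplasm by its own ankyrin repeats and is cut to p52 when the non-canonical pathway is active. Probe set 1425902_a_at read 9.73 and 9.49 in the K5-IKKbeta arrays, against 7.94 and 7.82 in the wild type arrays. Both K5-IKKbeta arrays were higher, by at least 1.55 on the log2 scale. Its log2 fold change was 1.73 ± 0.13 (SE; 95% interval 1.42 to 2.04, limma adjusted p = 4.91e-04), which placed Nfkb2 at rank 179 of the tested genes. Probe set 1429128_x_at of the same gene read 9.06 and 8.83 in the K5-IKKbeta arrays, against 8.84 and 8.19 in the wild type arrays. These groups overlapped, since wild type pool 1 lay above K5-IKKbeta pool 2, and the wild type pools differed from each other by 0.65. Its log2 fold change was 0.43 (95% interval -0.09 to 0.96, limma adjusted p = 0.254). With 1 array left out at a time it was 0.11 (without wild type replicate 2, adjusted p = 0.813) to 0.76 (without wild type replicate 1, adjusted p = 0.0793), and was called in no case. In its name the ending _x_at marks a probe set with probes that may bind other transcripts as well.

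The disagreement of the Nfkb2 probe sets was measured within arrays. Probe set 1425902_a_at minus 1429128_x_at was 0.67 and 0.66 in the K5-IKKbeta arrays, against -0.90 and -0.37 in the wild type arrays. The shift between genotypes was 1.30 on the log2 scale (exact permutation test, two-sided p = 0.333, the smallest that 2 against 2 arrays allow). Averaged over the 4 arrays the probe sets were almost equally bright, at 8.75 for 1425902_a_at and 8.73 for 1429128_x_at, so the choice of the brightest as the one that stands for the gene turned on a difference of less than 0.1. The RNA level of p100 does not report its processing to p52.

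Rela encodes the p65 subunit, which carries a strong transactivation domain and is the main partner of p50. Probe set 1419536_a_at read 10.63 and 10.46 in the K5-IKKbeta arrays, against 10.08 and 10.03 in the wild type arrays. The K5-IKKbeta arrays were higher by at least 0.37. The log2 fold change was 0.49 ± 0.12 (SE; 95% interval 0.21 to 0.77, limma adjusted p = 0.0341), at rank 2353 of the tested genes. This call was lost without wild type replicate 1 (adjusted p = 0.172), without wild type replicate 2 (adjusted p = 0.221) and without K5-IKKbeta replicate 1 (log2 fold change 0.40, adjusted p = 0.0958). It was also lost under another quantile normalization (log2 fold change 0.42, adjusted p = 0.0666).

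Rel encodes c-Rel, a subunit best known from lymphocytes and myeloid cells. Probe set 1420710_at read 6.76 and 6.48 in the K5-IKKbeta arrays, against 6.34 and 6.48 in the wild type arrays. Only K5-IKKbeta pool 1 stood above the others; pool 2 lay at the level of wild type pool 2. The log2 fold change was 0.21 ± 0.14 (SE; limma adjusted p = 0.389), and its 95% interval of -0.12 to 0.54 runs from a 0.919-fold to a 1.45-fold level in K5-IKKbeta skin. The log2 fold changes of Relb, Bcl3 and Nfkb2 1425902_a_at lie outside this interval, and those of Rela and Nfkb2 1429128_x_at lie inside it. Leaving out 1 array at a time gave Rel log2 fold changes of 0.06 (without K5-IKKbeta replicate 1) to 0.35 (without K5-IKKbeta replicate 2), and a call in no case. The probe set was dim, with 40.2% to 46.9% of the probe sets of an array below it.

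Bcl3 read 8.45 and 8.19 with probe set 1418133_at in the K5-IKKbeta arrays, against 6.72 and 6.64 in the wild type arrays. Both K5-IKKbeta arrays were higher, by at least 1.47. In wild type arrays 1 and 2 the probe set was dim, with 46.6% and 45.6% of probe sets below it. The size of the Bcl3 rise therefore rests on a dim wild type level. The group means were 8.32 ± 0.18 in K5-IKKbeta skin and 6.68 ± 0.05 in wild type skin (SD, n = 2 each). The log2 fold change was 1.64 ± 0.13 (SE; 95% interval 1.33 to 1.95, limma adjusted p = 5.90e-04), at rank 219 of the tested genes. Without any 1 array the log2 fold change was 1.51 to 1.77 and the adjusted p at most 0.0144.

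The start regions of Nfkb2, Bcl3, Rela and Rel are shown so that their letters can be read beside each other. A link between these letters and the calls was not tested. Each line gives 250 bases before to 50 bases from the start onward, 5′ to 3′ on the gene's strand, from RefSeq on GRCm38.p6. Capitals mark matches to GGGNNNNNCC, the outline of an NF-kB site, on either strand. Rela, Rel, Nfkb2 and Bcl3 matched the promoter table, with 3 start sites for Nfkb2, of which the third overlaps the second in part and is not shown. Relb, the member with the largest log2 fold change, had no window there, so nothing is given for its start region. The windows lie at chr19:46304487-46304786 and chr19:46305445-46305744 (Nfkb2, plus strand), chr7:19822706-19823005 (Bcl3, minus strand), chr19:5637291-5637590 (Rela, plus strand) and chr11:23770920-23771219 (Rel, minus strand).
Nfkb2, the first start site: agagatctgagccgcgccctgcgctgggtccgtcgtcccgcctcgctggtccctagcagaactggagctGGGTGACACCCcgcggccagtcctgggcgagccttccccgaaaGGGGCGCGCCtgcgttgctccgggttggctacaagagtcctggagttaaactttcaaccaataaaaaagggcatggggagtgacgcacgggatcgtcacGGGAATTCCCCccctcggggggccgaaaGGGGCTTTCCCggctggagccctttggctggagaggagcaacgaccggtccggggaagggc
Nfkb2, the second start site: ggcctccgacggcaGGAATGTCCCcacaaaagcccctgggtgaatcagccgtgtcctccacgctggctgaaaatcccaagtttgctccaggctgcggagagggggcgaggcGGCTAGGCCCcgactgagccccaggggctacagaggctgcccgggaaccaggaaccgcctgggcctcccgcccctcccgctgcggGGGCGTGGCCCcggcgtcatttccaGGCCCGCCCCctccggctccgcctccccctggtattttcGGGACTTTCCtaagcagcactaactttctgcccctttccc
Bcl3: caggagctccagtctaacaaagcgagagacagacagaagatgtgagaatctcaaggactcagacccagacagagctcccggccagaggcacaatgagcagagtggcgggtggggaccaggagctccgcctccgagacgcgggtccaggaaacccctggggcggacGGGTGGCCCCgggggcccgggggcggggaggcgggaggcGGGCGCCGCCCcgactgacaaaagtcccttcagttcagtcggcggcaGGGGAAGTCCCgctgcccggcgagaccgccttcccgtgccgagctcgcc
Rela: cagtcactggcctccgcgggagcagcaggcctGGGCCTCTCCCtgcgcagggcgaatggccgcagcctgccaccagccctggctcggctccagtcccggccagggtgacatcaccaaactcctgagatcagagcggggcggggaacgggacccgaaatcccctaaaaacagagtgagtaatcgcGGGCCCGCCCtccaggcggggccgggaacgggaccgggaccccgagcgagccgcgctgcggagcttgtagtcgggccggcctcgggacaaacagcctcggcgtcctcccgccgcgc
Rel: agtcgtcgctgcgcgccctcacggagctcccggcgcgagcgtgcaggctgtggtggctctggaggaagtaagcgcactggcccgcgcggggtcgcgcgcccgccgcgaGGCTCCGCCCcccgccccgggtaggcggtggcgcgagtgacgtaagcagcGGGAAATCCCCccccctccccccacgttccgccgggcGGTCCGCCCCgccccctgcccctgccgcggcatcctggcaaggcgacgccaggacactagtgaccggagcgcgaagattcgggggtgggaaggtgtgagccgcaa

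Matches, which may overlap each other, began at 7 positions in the first Nfkb2 window, 6 in the second, 4 in the third and 5 in the Bcl3 window, and at 3 positions for Rela and 4 for Rel. Of 32851 windows of this length in the table, 50.8% held at least 1 match, and as many as 7, 6, 5, 4 and 3 were held by 0.661%, 1.47%, 3.16%, 6.65% and 13.6%. The first Nfkb2 window holds GGGAATTCCC at -39 to -30 and GGGGCTTTCC at -11 to -2, counted from -1 just before the start. The second Nfkb2 window holds GGGACTTTCC at 11 to 20, counted from 1 at the start. Bcl3 holds GGGAAGTCCC at 3 to 12, and Rel, which was not called, holds GGGAAATCCC at -92 to -83. The GC content of the 5 windows shown was 65.7% to 75.0%, against a median of 52.7% in the table, and its part in the number of matches was not tested. A match is a description of the letters and not a measurement of binding.

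Set by arm, the non-canonical subunits Relb and Nfkb2 had log2 fold changes of 2.73 and 1.73, and the canonical subunits Rela and Rel had 0.49 and 0.21. The mean log2 fold change was 2.23 for the non-canonical pair and 0.35 for the canonical pair. The value of Nfkb2 here, and in the pairs below, is that of 1425902_a_at. With the mean of both its probe sets the non-canonical pair averaged 1.91. With 1429128_x_at alone Nfkb2 had a log2 fold change of 0.43 and was not called. That is below the 0.49 of Rela and above the 0.21 of Rel, so with this probe set Nfkb2 did not shift upward against Rela. The difference between arms was measured inside each array, where shared effects of an array cancel. Each shift equals the difference between the log2 fold changes of its genes given above. Its direction therefore follows from them and is no separate evidence. Relb minus Rela was -1.08 and -0.94 in the K5-IKKbeta arrays, against -3.26 and -3.24 in the wild type arrays, a shift of 2.24 on the log2 scale. Nfkb2 minus Rela was -0.90 and -0.97 in the K5-IKKbeta arrays, against -2.14 and -2.21 in the wild type arrays, a shift of 1.24. In both comparisons the groups did not overlap. Single probe sets did not overlap, in either direction, in 25322 of 45101 cases, and the share among other pairs of genes was not computed.

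Against Rel the shifts were of the same direction. Relb minus Rel was 2.79 and 3.04 in the K5-IKKbeta arrays, against 0.48 and 0.31 in the wild type arrays, a shift of 2.52. Nfkb2 minus Rel was 2.97 and 3.01 in the K5-IKKbeta arrays, against 1.60 and 1.34 in the wild type arrays, a shift of 1.52. Each of these 4 pairs gave p = 0.333 in a two-sided exact permutation test (0.333 after Benjamini-Hochberg adjustment over the 4), which is the smallest value 2 against 2 arrays allow, so no pair could pass the threshold. The shifts exceeded the spread between pools, whose SD within a genotype was 0.02 to 0.19. With the mean of both Nfkb2 probe sets the shifts were smaller, 0.59 against Rela and 0.87 against Rel.

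**Figure D3:**
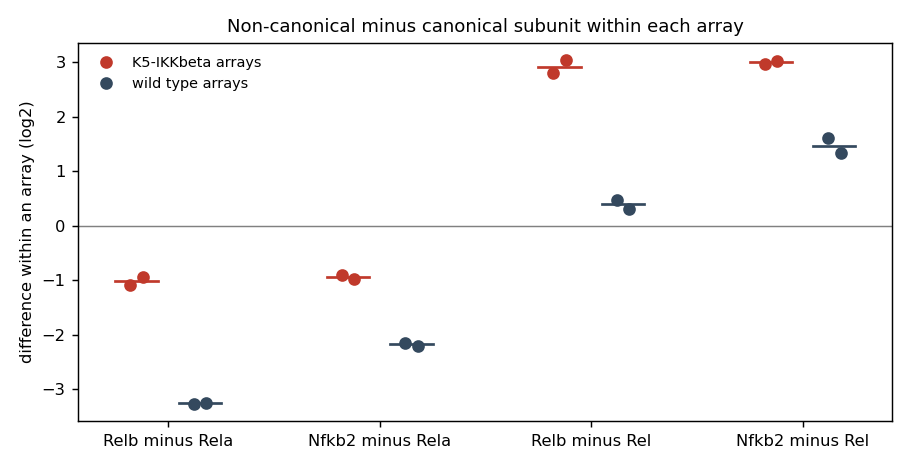
Within-array difference between a non-canonical and a canonical subunit (log2, vertical axis) for 4 pairs, with Nfkb2 read by 1425902_a_at. Points are arrays, K5-IKKbeta left and wild type right in each pair, and short lines are means (n = 2 each). The K5-IKKbeta arrays lie above the wild type arrays in all 4 pairs, with differences between group means of 1.24 to 2.52; the height of a pair also reflects the brightness of its probes and has no meaning of its own.

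The genes whose pattern over the 4 arrays was most like that of a member were ranked by the root mean square difference of values centred on each gene's own mean. For Relb these were Pnpla5, a lipid hydrolase of the patatin-like family (0.04), Prkcb, the beta form of protein kinase C (0.05), and Ccl1, a chemokine (0.06). For Nfkb2 they were Nrg4, a ligand of the EGF receptor family, Gstp3, a glutathione transferase, and Csf1, the growth factor of macrophages, at 0.04 each. For Bcl3 they were Trim47 (0.01), Cd274, the checkpoint ligand PD-L1 (0.02), and the transcription factor Nfatc1 (0.02). Within 0.1 of a member lay 10 other genes for Relb and 35 each for Nfkb2 and Bcl3, against 905 for Rela and 1053 for Rel. For Rela the nearest were Flot1, Tnrc6a and Map7d1, and for Rel they were Wdhd1, Triobp and Sec22c, all at about 0.01. A likeness over 4 arrays is a description of these arrays.

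Around the members, 79 of 106 different genes in 6 lists were tested, of which 36 were called higher and 2 lower, against 23.4% higher and 10.6% lower among all 13074 tested genes. Their median log2 fold change was 0.29, against 0.09 over all tested genes. With 1 array left out at a time fewer list genes were called higher, and the median was 0.29 to 0.31. Without wild type replicate 1 or 2 the calls also fell among all tested genes. The p-values of single genes below are limma's, adjusted over 13074 genes. Some genes, such as Nfkbia and Birc3, are in more than 1 list.

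In the upstream machinery of the canonical pathway 10 of 20 tested genes were called higher and 1 lower, with a median log2 fold change of 0.30. The 10 include Ikbkb, which the transgene carries; without it 9 of 19 were called higher. Birc3 and Birc2, the cIAP ubiquitin ligases that sit with TRAF2 at TNF receptors, rose by 1.77 (adjusted p = 1.10e-04) and 1.17 (adjusted p = 8.77e-04). Traf2 and Traf5, adaptors of those receptors, rose by 0.92 and 0.90, Bcl10, an adaptor of antigen receptor signalling, by 0.90, and Rnf31, a ligase that builds linear ubiquitin chains, by 0.73. Tab3, a subunit of the TAK1 kinase complex, was the 1 lower gene (log2 fold change -0.48, adjusted p = 0.0294), a call lost without wild type replicate 1, wild type replicate 2 or K5-IKKbeta replicate 1. Without wild type replicate 1 or 2 fewer genes of this list were called higher, as among all tested genes, since 1 wild type array remained. The median of the list was then 0.30 and 0.31.

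Of 12 tested genes of the non-canonical pathway 6 were called higher and 0 lower (1 lower at limma's unadjusted p under 0.05), with a median of 0.39, or 0.64 with a filter at the 60th percentile. Of the 6, 3, Traf2, Birc2 and Birc3, are those of the canonical list. Under another quantile normalization, or with no filter on dim probe sets, 1 gene of this list was called lower. Without the filter 6 of 17 genes were called higher, with a median of 0.32. Ltb, the lymphotoxin beta chain that signals through the lymphotoxin beta receptor, read 8.36 and 7.99 in the K5-IKKbeta arrays, against 6.45 and 6.11 in the wild type arrays (log2 fold change 1.89, adjusted p = 6.93e-04). Both K5-IKKbeta arrays lay above both wild type arrays. The wild type mean of Ltb, 6.28, lay below the filter of the gene-level fit, which Ltb passed only through its K5-IKKbeta level. The size of the Ltb rise is therefore not established. Tbk1, an IKK-related kinase, rose by 0.64, and Cd40, a receptor of this pathway, by 0.33 (adjusted p = 0.0410). Map3k14, which encodes NIK, the kinase that starts p100 processing, had a log2 fold change of 0.02 (adjusted p = 0.955). The receptor genes Ltbr and Tnfrsf11a, which encodes RANK, had log2 fold changes of 0.27 and 0.45, with adjusted p of 0.0742 and 0.0947. Tnfrsf12a, also a receptor gene of the list, had a log2 fold change of 0.05 (adjusted p = 0.712). The gene lower at limma's unadjusted p under 0.05 was Otud7b, at -0.31 (adjusted p = 0.0721). Map3k14, Otud7b and these receptor genes were named after their values were seen.

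Inhibitors of the pathway rose in part. Of 13 tested genes of the IkB family and of deubiquitinating inhibitors 7 were called higher and 0 lower (0 also at limma's unadjusted p under 0.05), with a median of 0.49. Tnfaip3, the ubiquitin-editing enzyme A20, read 11.30 and 11.07 in the K5-IKKbeta arrays, against 8.66 and 8.58 in the wild type arrays (log2 fold change 2.57, adjusted p = 6.08e-05). Nfkbia, which encodes IkB alpha, rose by 1.53, Tnip1, a partner of A20, by 1.40, and Tnip2, a relative of Tnip1, by 0.49. Nfkbiz, an IkB-like protein of the nucleus as Bcl-3 is, rose by 0.84, and Cyld, a deubiquitinase that also acts on Bcl-3, by 0.84.

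Nuclear partners and modifiers of Rel proteins and of Bcl-3 moved little. Of 14 tested genes 2 were called higher and 1 lower, with a median of -0.04. Pir, which encodes the Bcl-3 binding protein pirin, rose by 0.54 (adjusted p = 0.0168), and Irf4, a transcription factor of lymphocytes, by 0.34 (adjusted p = 0.0345). Sirt1, a deacetylase of RelA, fell by 0.71 on the log2 scale (adjusted p = 0.0046). The count of higher genes was 0 without wild type replicate 2 or with a filter at the 60th percentile. It was 1 without wild type replicate 1 or K5-IKKbeta replicate 2, with the mean of all probe sets, and under the other normalizations. The acetyltransferases Ep300 and Crebbp, coactivators of RelA, had log2 fold changes of -0.05 and 0.06, with adjusted p of 0.742 and 0.669. They were named after their values were seen.

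Of 19 tested textbook targets of RelA dimers 13 were called higher and 0 lower (0 also at limma's unadjusted p under 0.05), with a median of 1.37. The filter takes the mean over all 4 arrays, so a gene dim in wild type skin can pass through its K5-IKKbeta level. With no filter on dim probe sets 16 of 24 genes were called higher, with a median of 0.85. Over all 18194 genes that count was 2970. Besides Tnfaip3, the largest rises were in the chemokines Cxcl10 (3.28), Ccl2 (3.13) and Ccl20 (means of 9.17 in K5-IKKbeta and 7.17 in wild type skin). The others were in Lcn2, an iron-binding defence protein (3.16), and in Icam1, an adhesion molecule for leukocytes (3.07). In the wild type arrays Lcn2 read 5.56 and 5.32 and Ccl2 read 5.96 and 6.04, all below the filter's 6.33. The sizes of the Lcn2 and Ccl2 rises are therefore not established. Of 7 tested textbook targets of RelB-p52, 4 were called higher and 0 lower (1 lower at limma's unadjusted p under 0.05), with a median of 0.58. With no filter on dim probe sets 5 of 11 were called higher. Ubd and Spib passed the filter only through their K5-IKKbeta levels. Both target lists were chosen with earlier results of these data known, so their counts are a description and no separate evidence. Ubd, a ubiquitin-like modifier, read 9.45 and 9.18 in the K5-IKKbeta arrays, against 4.77 and 4.34 in the wild type arrays. Spib, an Ets factor, read 9.28 and 9.01 in the K5-IKKbeta arrays, against 5.03 and 4.85 in the wild type arrays. Both wild type arrays lay below their array's 25th percentile of 5.38 and 5.32 for Ubd and Spib, so that the size of these rises is not established (adjusted p = 2.90e-05 and 1.60e-05). Cd86, a costimulatory ligand, rose by 1.22 and Icosl, another one, by 0.58. With a filter at the 60th percentile 1 target of RelB-p52 was called higher and the median was 0.24; with the mean of all probe sets the median was 0.25. Dimers of both arms share targets in many cells, and the numbers of calls were not compared between these lists.

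Markers of other cells in the skin moved beside the members. All 5 general leukocyte markers were called higher; their mean log2 level was 9.95 and 10.03 in the K5-IKKbeta arrays, against 7.92 and 8.07 in the wild type arrays. All 9 macrophage markers were called higher (9.54 and 9.79 in the K5-IKKbeta arrays, against 8.43 and 8.42 in the wild type arrays). Of the 8 dendritic and Langerhans cell markers with a probe set, 6 were tested and 2, Itgax and Cd207, were called higher; the mean over the 8 was 7.83 and 7.69 in the K5-IKKbeta arrays, against 7.19 and 7.06 in the wild type arrays. Of the T cell markers 5 were tested and 2, Cd3d and Cd3g, called higher. All 6 B cell markers with a probe set lay below the filter of the gene-level fit, with a mean of 5.70 and 5.45 in the K5-IKKbeta arrays and 5.64 and 5.49 in the wild type arrays. The part of these cells in the rises of the members was not tested.

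Keratinocyte markers, which include Krt5 itself, were called higher in 6 of 10 genes and lower in 2, Dsg1a and Dsc1. Their mean log2 level was 12.35 and 12.17 in the K5-IKKbeta arrays, against 11.97 and 11.97 in the wild type arrays. Endothelial markers were called higher in 4 of 6 genes (8.11 and 8.11 in the K5-IKKbeta arrays, against 7.57 and 7.55 in the wild type arrays) and fibroblast markers in 3 of 5 (13.09 and 13.31 in the K5-IKKbeta arrays, against 12.55 and 12.42 in the wild type arrays). All 7 hair shaft keratins with a probe set were called lower, with a mean of 7.36 and 7.65 in the K5-IKKbeta arrays, against 13.79 and 13.80 in the wild type arrays. With keratin genes left out before another quantile normalization, an alternative added after the data were seen, the log2 fold changes of Relb, Nfkb2 and Bcl3 were 2.67, 1.65 and 1.58.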

How the data were processed

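Total RNA of mouse back skin (5 micrograms per array) had been labelled with biotin, per the labels' protocols. The deposited log2 values had been made by the authors with RMA, as the submitters' processing notes say; log2 was read from their range, since the sources used here give no log base. RMA corrects background, normalizes by quantiles and summarizes probe sets. Detection calls were not analysed here, and precision is limited by the number of arrays. The platform annotation named probe sets: 34958 had 1 gene symbol, 932 several and 9211 none, and 0 symbols changed when updated through RefSeq (GRCm38.p6).

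Differences were estimated in R 4.3.3 by limma 3.58.1 (lmFit and eBayes with group as the term, two-sided) over all 45101 probe sets without a filter, with Benjamini-Hochberg adjustment and a threshold of 0.05. A second fit took for each gene its probe set with the highest mean over all 4 arrays. That mean had to exceed the 40th percentile (6.33), which left 13074 genes. Both fits were tested on simulated data. P-values rest on the spread between pools, which may in part be technical, and on moderation of variances across probe sets or genes. In the fit per probe set the prior had 4.46 degrees of freedom, against 2 residual ones. The SE of Relb was 0.11 with moderation and 0.03 without it, so it does not measure the spread of its own pools alone. The 5 genes and the lists were chosen with earlier results of these data known. List genes were named by a rule: per list up to 6 called genes with the largest change, and per member the 3 most alike genes. Replicate numbers were not taken to pair the arrays. Alternatives were other filters, normalizations, variance settings, a test against 1.2-fold, the replicate number as a block, the mean of probe sets and each array left out.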

Additional observations from a re-analysis of the deposited data

How the results depend on the processing

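The calls of Relb, Nfkb2 1425902_a_at and Bcl3 held under every alternative run but 1. With no moderation of variances across probe sets, 0 of the 6 probe sets were called in limma's linear fit, and 4 had an unadjusted p under 0.05. That fit has 2 residual degrees of freedom per probe set, and its adjusted p was 0.0639 for Relb (2.73), 0.138 for Nfkb2 (1.73), 0.140 for Bcl3 (1.64) and 0.211 for Rela (0.49). Rela was also not called when tested against a 1.2-fold change (adjusted p = 0.317), under another quantile normalization (0.42, adjusted p = 0.0666) and with keratin genes left out before it (0.41, adjusted p = 0.0752); the cause was not tested. Leaving out 1 array at a time gave Rela log2 fold changes of 0.40 to 0.58, 3 to 4 member probe sets called, 23 to 34 higher and 1 to 3 lower genes over all lists, and a median of -0.11 to 0.01 for nuclear partners, which changed sign without wild type replicate 2 (0.0057) and without K5-IKKbeta replicate 1 (0.014). With the mean of all probe sets, Nfkb2 minus Rela shifted by 0.59 and Nfkb2 minus Rel by 0.87. With the replicate number as a block, which the labels do not tie to a shared batch, Relb had an adjusted p of 0.00188, Rela one of 0.0392, 4 member probe sets were called and no call of a member changed; deviations of same-numbered arrays correlated at 0.254 across probe sets. The filter at the 60th percentile removed Rel and Bcl3 from the fit per probe set, which gives no value for them there.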

Other observations

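Relb and Bcl3 lie on the same stretch of chromosome 7, with 10 protein-coding genes between them in RefSeq, the apolipoprotein genes Apoe, Apoc1, Apoc2 and Apoc4 among them. Of these 8 were tested at gene level, with log2 fold changes of -0.24 to 0.95, all below the 2.73 of Relb and the 1.64 of Bcl3. Apoc1, a lipid-carrying protein, rose by 0.95 (limma adjusted p = 0.0027), Apoc4 by 0.41 and Bcam, an adhesion molecule that binds laminin, by 0.33, and none was called lower. Among the tested neighbours, 3 genes on each side, Relb had 1 of 4 called lower, Zfp296 (-0.38), and Nfkb2 on chromosome 19 had 2 of 5 called higher, Elovl3, which elongates fatty acids (0.96), and Cuedc2 (0.61). Rela, on the same chromosome, had 1 of 6 higher, Sipa1 (0.57), and 1 lower, Ap5b1 (-0.56), and Rel on chromosome 11 had 1 of 6 higher, Pex13 of the peroxisome (0.72). All these genes were named after their values were seen. Among all 13074 tested genes 23.4% were called higher and 10.6% lower, and the counts of neighbours were not tested against these shares.

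The pools of a genotype differed in the same direction for most of these probe sets. K5-IKKbeta pool 1 lay above K5-IKKbeta pool 2 in 6 of 6 probe sets, by 0.04 to 0.29, against 54.1% of all probe sets on the array. Wild type pool 1 lay above wild type pool 2 in 5 of 6, by 0.03 to 0.65, against 47.2% of all probe sets.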
